A study of Mus musculus with 9 samples.

Results

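The unfolded protein response and the chaperones of the endoplasmic reticulum (ER) were followed through 10 genes in growing mouse oocytes. The genes were Eif2ak3, Ern1 and Atf6 (the ER stress sensors), Atf4, Xbp1 and Ddit3 (the transcription factors) and Hspa5, Hsp90b1, Calr and Canx (the chaperones). They were chosen by name, and all 10 were found among the 28052 genes of the UMI count table. Oocytes of XX, XO and XY females were compared, with 3 samples per genotype, to see how the sex chromosome complement relates to the transcriptome. Each sample pooled 30 oocytes from ovaries at 18 days postpartum (dpp), in the middle of the growth phase, of which 10 measured 50–55 μm and 20 measured 55–60 μm. XY females and their XX littermates had fathers with the B6.Y TIR chromosome, a Y chromosome that lets XY gonads become ovaries on the C57BL/6J background. XO females had fathers that carried Paf, from a C3H/HeSnJ stock backcrossed to C57BL/6J, and C57BL/6J mothers. In every comparison with XO oocytes, genotype and cross therefore cannot be told apart. The strain label of all 9 samples is C57BL/6. The samples are separate pools, but nothing says which females each came from, so that p-values measure the spread between pools.

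The ER folds secreted and membrane proteins, and a growing oocyte makes large amounts of them for its zona pellucida. When unfolded proteins build up, the chaperone BiP leaves the luminal ends of PERK, IRE1α and ATF6, and these sensors become active. PERK phosphorylates eIF2α, which lowers most translation but raises that of Atf4 mRNA. IRE1α splices Xbp1 mRNA into the form that encodes the active factor, and ATF6 is cut in the Golgi to release a transcription factor. ATF6 and XBP1 raise transcription of ER chaperone genes, whereas ATF4 raises genes of amino acid supply, redox balance and, through CHOP, cell death. Much of this regulation is at the level of protein or splicing, and the counts described here measured transcript level alone.

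Transcript levels are given as normalized CPM, the UMI count relative to all gene UMIs (as CPM), divided by the spike-in factor of the sample. That factor compares the spike-ins relative to their own total (TMM). The share of spike-ins among the UMIs of a sample, 0.204–0.862%, therefore does not enter it. Each UMI marks 1 transcript 5′ end, so that levels of different genes are not scaled by length. The 9 samples held 2130145–3157338 gene UMIs, and 1 UMI equaled 0.302–0.565 normalized CPM. Oocyte markers were abundant: without the X-linked Bmp15, the other 9 of 10 listed summed to 17700–35000 normalized CPM. Granulosa markers summed to 48.0–92.1, with 7 of 10 listed found. Most of this sum was Nr5a2, Cyp19a1 and Kitl, with 699, 463 and 292 UMIs over all samples, whereas Inha and Fst had 1 UMI each. Theca and stroma markers summed to 3.95–14.2 (7 of 10 found) and blood and endothelial markers to 16.1–134 (3 of 8 found). A pair of samples stood apart. Mitochondrial genes took 13.1% of the UMIs in XO1 and 10.8% in XY1, against 2.65–6.02% in the other 7 samples.

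Between genotypes, 8 of the 10 members could be tested with edgeR, since Xbp1 and Ddit3 fell below the filter on low counts. The call of a gene required an unadjusted two-sided p-value under 0.05. Against XO oocytes, XX oocytes had lower transcript levels of 2 members, Atf4 and Canx, and a higher level of none. Among all 10993 genes tested, 16.7% were lower and 1.4% higher in XX oocytes, so that the members' share of 25.0% lower rests on 2 genes. In the batch-regressed values 5 members passed this comparison, with Atf6, Hspa5 and Calr higher (0.50, 0.52 and 1.13 on the log2 scale) and Atf4 and Canx lower in XX oocytes. XY oocytes had lower levels of Atf4 and Eif2ak3 than XO oocytes and a higher level of no member, with 8.24% of all genes lower and 1.69% higher in XY oocytes. No member was called between XX and XY oocytes, where 4.39% of all genes were lower and 1.41% higher in XX oocytes. With edgeR 0 of 8 members passed the unadjusted threshold here and with DESeq2 also 0, whereas 2 passed with sva covariates (Hspa5 and Calr) and 3 in the batch-regressed values (Hspa5, Hsp90b1 and Calr), all higher in XX oocytes. Atf4 was the single member that was higher in XO than in both other genotypes, as were 6.39% of all genes. After Benjamini-Hochberg adjustment over all genes tested, edgeR called no member in any comparison. The 2 comparisons with XO oocytes share the XO samples. Where pools of genotypes are said below not to overlap, the share of all genes without overlap was not counted. Such statements hold on the spike-in scale, with factors of 0.7029–0.8465 in the XO pools and 1.01–1.247 in the others. Division by a lower factor raises the level.

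**Figure D1:**
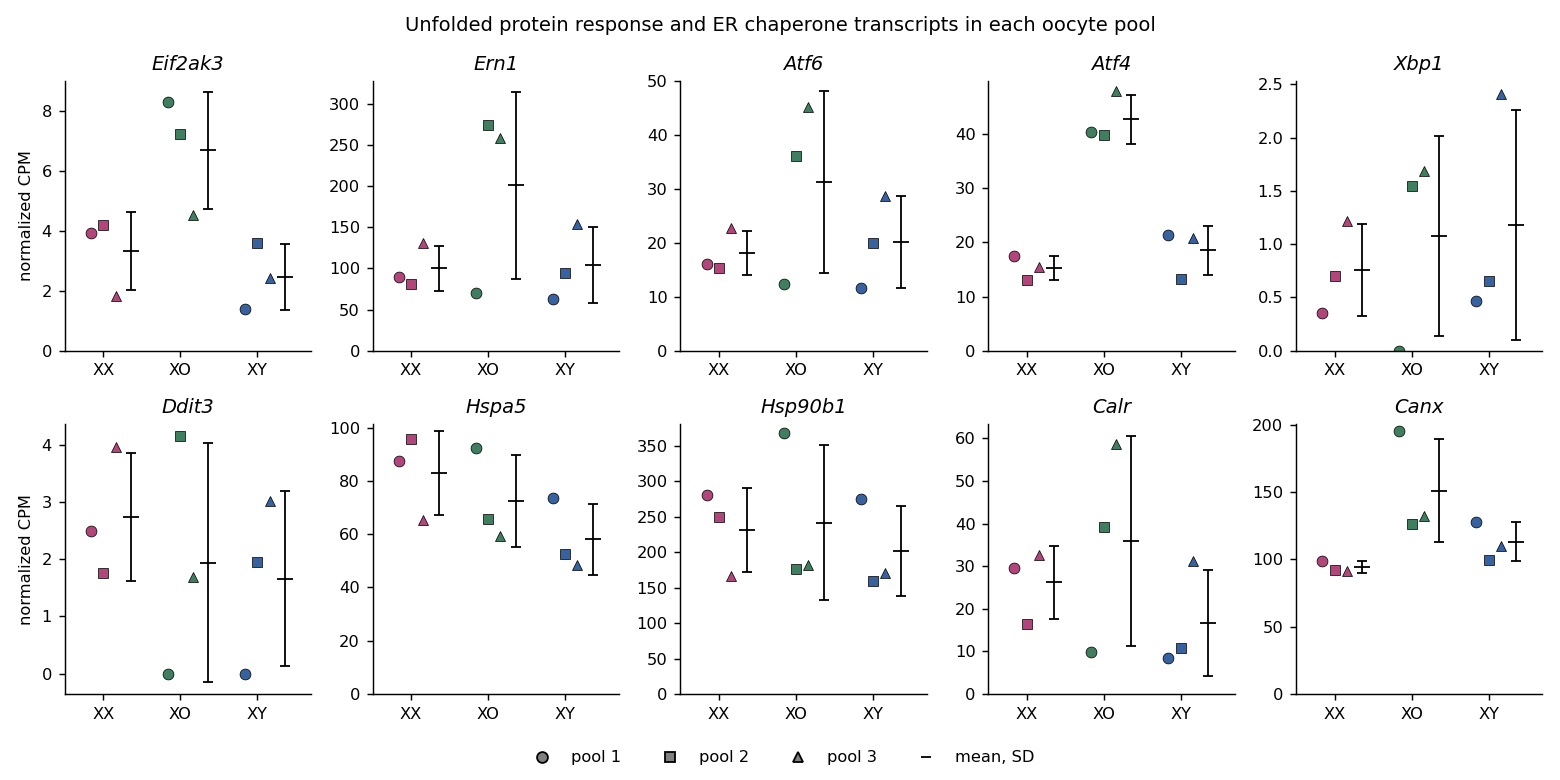
Transcript level (normalized CPM, linear axis that differs between panels) of the 10 members in each of the 9 samples. Circles, squares and triangles are pools 1, 2 and 3 of each genotype, and the black bar gives their mean and SD (n = 3). The 3 XO pools lie above the other 6 for Atf4, at 39.8–48.0 against 13–21.4, whereas Ern1, Atf6 and Calr are lowest in XO1 among the XO pools.

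The median log2 fold change of all genes tested was −0.46 for XX over XO, −0.19 for XX over XY and −0.30 for XY over XO oocytes. When the samples were scaled by TMM factors of the genes themselves rather than by the spike-in factors, these medians moved by 0.34, 0.19 and 0.17. The calls among all genes then changed from 154 above and 1832 below the XO level in XX oocytes to 481 and 864. Those between XX and XY oocytes changed from 155 and 483 to 293 and 272, and those between XY and XO oocytes from 186 and 906 to 366 and 625. In the batch-regressed values of the authors the split was turned, where XX oocytes had 3993 genes above and 855 below their XO level, and XY oocytes 4173 above and 662 below it. It was 1162 and 1380 between XX and XY oocytes. Relative to the median of all genes, the members that were called are given with their results. For XX over XO, XX over XY and XY over XO, the values relative to the median were −0.54, 0.14 and −0.65 for Ern1 and −0.33, 0.04 and −0.33 for Atf6. Those of the chaperones that were not called were 0.65, 0.70 and −0.02 for Hspa5, 0.40, 0.40 and 0.04 for Hsp90b1 and 0.01, 0.82 and −0.79 for Calr.

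Atf4 lies at chr15:80255184-80257540 of GRCm38, on the plus strand. Its product, which rises under several kinds of stress that phosphorylate eIF2α, activates genes of amino acid transport and synthesis. Atf4 was at 17.5, 13 and 15.5 normalized CPM in XX1, XX2 and XX3. It was at 40.4, 39.8 and 48.0 in XO1, XO2 and XO3 and at 21.4, 13.3 and 20.8 in XY1, XY2 and XY3. All 3 XO pools were above the other 6, while XX and XY pools overlapped. These levels rest on 37–51 UMIs per XX pool, 77–85 per XO pool and 41–69 per XY pool. XX oocytes had a mean of 15.3 ± 2.26 (SD, n = 3), XO oocytes of 42.7 ± 4.56 and XY oocytes of 18.5 ± 4.49. Each pool held 30 oocytes, and how their transcript levels differed within a pool cannot be seen.

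Atf4 was thus 2.78-fold lower in XX than in XO oocytes (log2 fold change −1.48, SE 0.29, adjusted p = 0.203 with edgeR), the gene with rank 19 by p-value among all tested. It was 2.31-fold lower in XY than in XO oocytes (log2 fold change −1.21, SE 0.29, adjusted p = 0.485 with edgeR), with rank 33. Between XX and XY oocytes the log2 fold change was −0.27 (SE 0.29), which did not pass the test. Relative to the median of all genes, the differences to XO oocytes were −1.02 and −0.91. They passed the test in 16 of 16 alternatives for each comparison, with log2 fold changes from −1.53 to −0.87 between XX and XO and from −1.32 to −0.76 between XY and XO oocytes. These alternatives include the scaling by genes, the batch-regressed values and leaving out each pool in turn. XX and XY oocytes differed by −0.47 to −0.08 under the same alternatives, with 0 of 16 past the test. Without XO1 and XY1 together, the pools with a high mitochondrial share, the log2 fold changes of Atf4 were −1.47 and −1.25, both past the test.

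**Figure D2:**
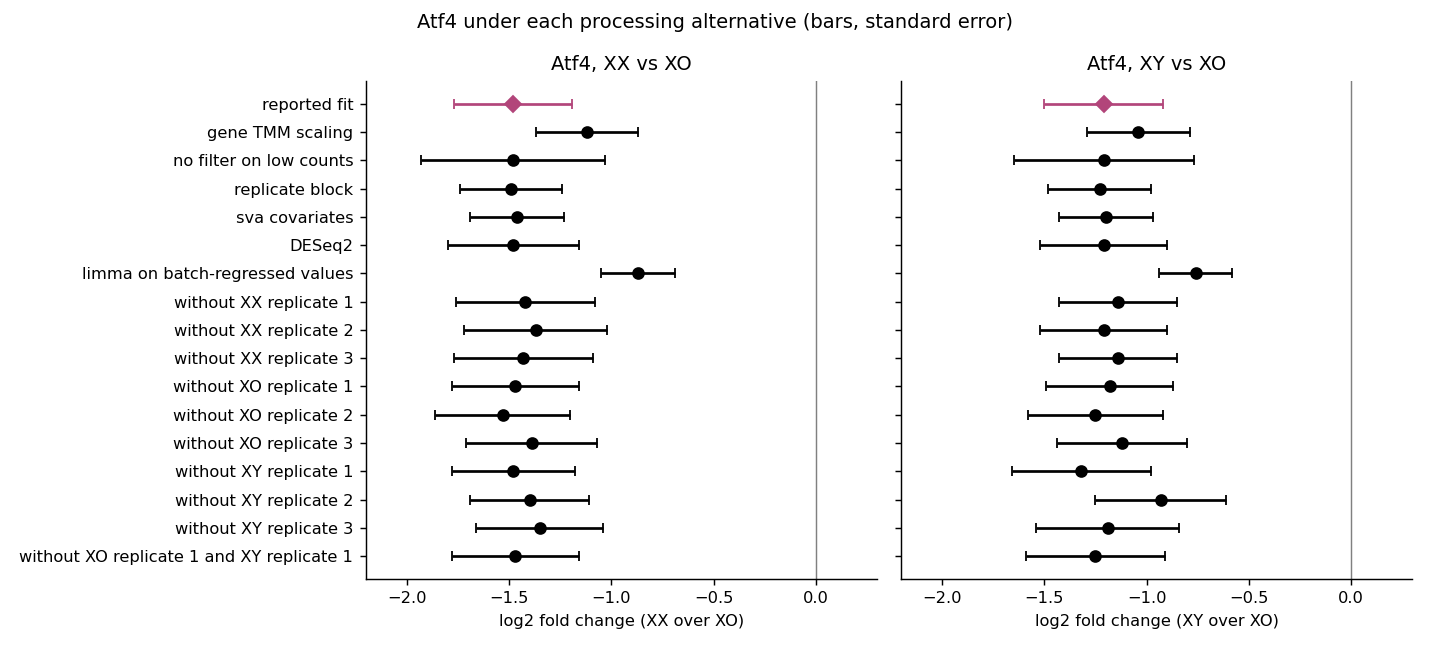
Log2 fold change of Atf4 (horizontal axis) with its standard error, for XX over XO on the left and XY over XO on the right, in the reported fit (diamond) and in each of 16 alternatives (circles). All lie below 0, and the values nearest to 0, at −0.87 and −0.76, come from the batch-regressed values.

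Xbp1 (chr11:5520659-5525893, plus strand) and Ddit3 (chr10:127290774-127296288, plus strand) were barely detected. Xbp1 received 24 UMIs in all 9 samples together, with 0.356, 0.700 and 1.22 normalized CPM in the XX, 0, 1.55 and 1.69 in the XO and 0.465, 0.651 and 2.41 in the XY pools. Ddit3, which encodes CHOP, received 52 UMIs, with 2.49, 1.75 and 3.96 normalized CPM in the XX, 0, 4.14 and 1.69 in the XO and 0, 1.95 and 3.02 in the XY pools. The 3 genotypes overlapped for both genes. No difference between genotypes was shown at this depth. A count of 0 in a single pool allows up to 3 UMIs, or 1.55 normalized CPM in XO1 and 1.39 in XY1. This limit covers counting error alone. When the filter was left out, neither gene was called in any comparison. Ddit3 overlaps Gm4189 and Mars on the other strand. The spliced and unspliced forms of Xbp1 were not told apart by these counts.

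Among the sensors, Ern1 was the most abundant and Eif2ak3 the least. Ern1, at chr11:106394650-106487852 on the minus strand, encodes IRE1α, the kinase and RNase of the ER membrane. Its transcript level was 89.4, 80.5 and 131 normalized CPM in the XX, 69.9, 275 and 259 in the XO and 63.2, 94.7 and 154 in the XY pools. XO2 and XO3 were above all 7 other samples, whereas XO1 was below all XX pools. Atf6 (chr1:170704674-170867771, minus strand) was likewise lowest in pool 1 of XO and of XY oocytes, with 16.0, 15.4 and 22.8 in the XX, 12.4, 36.2 and 45.2 in the XO and 11.6, 19.9 and 28.7 in the XY pools. Again XO2 and XO3 were highest of all samples, and XY1 and XO1 were lowest.

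Neither gene passed the test in a comparison of the 3 genotypes. The log2 fold change of Ern1 was −1.0 (SE 0.53, adjusted p = 0.326 with edgeR) for XX over XO and −0.95 (SE 0.53, adjusted p = 0.54 with edgeR) for XY over XO, and that of Atf6 was −0.78 (SE 0.49, adjusted p = 0.391 with edgeR) and −0.63 (SE 0.49, adjusted p = 0.637 with edgeR). With the pools paired by replicate number as a block, Ern1 was lower in XY than in XO oocytes, at −0.89 (adjusted p = 0.299 with edgeR). Without XO1, XX oocytes had lower levels of both genes than XO oocytes, with Ern1 at −1.36 and Atf6 at −1.12, and so had XY oocytes, at −1.27 and −0.92. Ern1 also passed the test with sva covariates, at −0.54 and −0.51, and without the filter on low counts, at −1.0 and −0.95. In the batch-regressed values the directions were turned, with Ern1 at 0.36 and 0.23 and Atf6 at 0.50 and 0.45 for XX and XY over XO oocytes.

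Eif2ak3, at chr6:70844515-70905245 on the plus strand, encodes PERK, the sensor upstream of ATF4. It was at 3.92, 4.2 and 1.83 normalized CPM in the XX, 8.28, 7.24 and 4.52 in the XO and 1.39, 3.58 and 2.41 in the XY pools, from 3–16 UMIs per pool. On the spike-in scale the lowest XO pool was above every XX and XY pool. In UMIs this pool, XO3, had 8, against 11, 12 and 6 in the XX and 3, 11 and 8 in the XY pools. XY oocytes had a 2.63-fold lower level than XO oocytes (log2 fold change −1.40, SE 0.50, adjusted p = 0.485 with edgeR), or −1.09 relative to the median of all genes. This call was lost without XO1 (−1.11), XO2 (−1.34), XY1 (−1.15) or XY3 (−1.24) and without XO1 and XY1 together (−0.86). For XX over XO the log2 fold change was −1.01 (SE 0.48, adjusted p = 0.293 with edgeR) and for XX over XY 0.38 (SE 0.50), and neither passed the test. The difference between XX and XO oocytes did pass the test without XO3 (−1.23), with sva covariates (−1.07) and with the replicate block (−1.03). Eif2ak3 shares its locus with Gm23346 on the same and Gm43292 on the other strand, and Atf6 holds the genes Gm23523 and Gm25235 on its own strand.

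**Figure D3:**
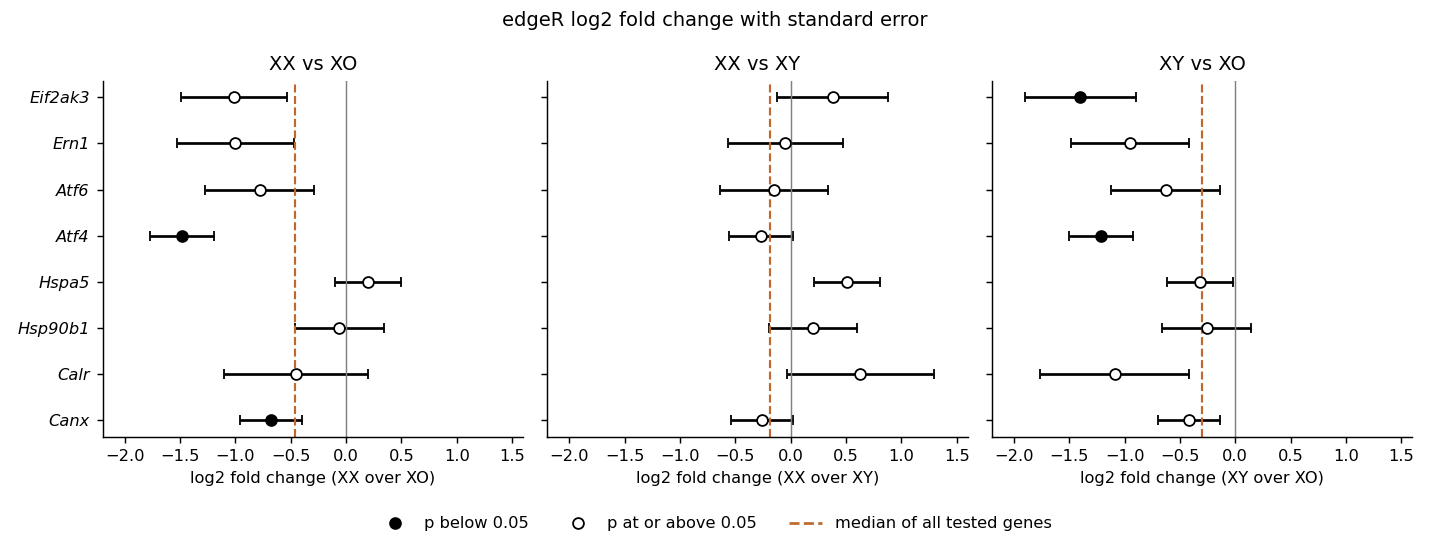
Log2 fold change (horizontal axis) with its edgeR standard error for the 8 members tested, in each of the 3 comparisons. Filled circles have a p-value below 0.05, and the dashed line marks the median of all 10993 genes tested, at −0.46, −0.19 and −0.30. Atf4 lies left of that line in both comparisons with XO oocytes, and the 4 chaperones lie nearer to it.

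The chaperones were among the more abundant transcripts, with Hsp90b1 above 97.7% and Hspa5 above 93.1% of all genes by mean level. The promoters of all 4 chaperone genes share a sequence feature. Each holds at least 1 copy of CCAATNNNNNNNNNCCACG, the ER stress response element (ERSE) that NF-Y and ATF6 or XBP1 are known to bind, on either strand within 250 bases before the RefSeq start. The element was found in 37 of 32851 mouse promoter sequences (0.113%). Counted by gene symbol instead, it was in 4 of the 9 members with a promoter sequence and in 7 of 71 other pathway genes. Since ATF6 and XBP1 are known to act on ER chaperone genes, these counts describe the promoters and test nothing. The related element ERSE-II was in none of the members and in 0.0304% of promoters, so that no copies of the 2 elements overlap in these windows. The stretches below are shown to let the copies be compared. They are from RefSeq (GRCm38.p6), 5′ to 3′ on the strand of the gene, with the element in capitals.
Hspa5, chr2:34772020-34772048, plus strand: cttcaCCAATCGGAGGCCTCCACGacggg
Canx, chr11:50325770-50325848, minus strand: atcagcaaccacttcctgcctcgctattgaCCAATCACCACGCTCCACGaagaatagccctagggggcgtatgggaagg
Calr, chr8:84847045-84847123, minus strand: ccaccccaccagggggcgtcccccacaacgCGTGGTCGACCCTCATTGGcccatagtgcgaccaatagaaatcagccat
Hsp90b1, chr10:86705503-86705686, minus strand: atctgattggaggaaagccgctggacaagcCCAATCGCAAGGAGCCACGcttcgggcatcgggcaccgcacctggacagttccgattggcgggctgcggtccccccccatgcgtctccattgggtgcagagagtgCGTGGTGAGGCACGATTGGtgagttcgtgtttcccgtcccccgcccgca
The copies of Hspa5 and Canx read along the strand of the gene and that of Calr against it, while Hsp90b1 holds 1 in each direction. They start 65 bases before the RefSeq start in Hspa5, 145 in Canx, 162 in Calr and 212 and 107 in Hsp90b1. In the Gencode annotation Hspa5 starts farther upstream, and all 29 bases of its stretch are exon, as are 7 bases of the Hsp90b1 stretch. A match describes these letters and does not show that a factor was bound in oocytes.

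Hspa5 (chr2:34771970-34777547, plus strand) encodes BiP, the major ER chaperone of the HSP70 family. It was at 87.3, 95.9 and 65.5 normalized CPM in the XX, 92.2, 65.7 and 59.3 in the XO and 73.4, 52.4 and 48.6 in the XY pools. All 3 genotypes overlapped. The log2 fold change was 0.20 (SE 0.30, adjusted p = 0.735 with edgeR) for XX over XO, 0.51 (SE 0.30, adjusted p = 1 with edgeR) for XX over XY and −0.32 (SE 0.30, adjusted p = 0.696 with edgeR) for XY over XO. Without XX3 the level was higher in XX than in XY oocytes, by 0.66, and the batch-regressed values gave the same size of difference past the test.

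Hsp90b1 (chr10:86690209-86705509, minus strand) encodes GRP94, the HSP90 of the ER. It was the most abundant member, at 281, 250 and 166 normalized CPM in the XX, 369, 176 and 182 in the XO and 275, 159 and 171 in the XY pools. The genotypes overlapped, and the log2 fold changes of −0.06, 0.20 and −0.26 for XX over XO, XX over XY and XY over XO did not pass the test (SE 0.40 each). The first of them changed sign when samples were scaled by the genes, to 0.23. Hsp90b1 overlaps 1810014B01Rik on the other strand and holds Gm15344 and Gm25745 on its own.

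Calr and Canx encode calreticulin and calnexin, the soluble and the membrane-bound lectins that hold newly made glycoproteins in the ER until they are folded. Calr (chr8:84841850-84846934, minus strand) was at 29.6, 16.5 and 32.6 normalized CPM in the XX, 9.84, 39.3 and 58.7 in the XO and 8.37, 10.7 and 31.1 in the XY pools. XO oocytes spanned almost the whole range of the 9 samples. The log2 fold changes of Calr were −0.45 (SE 0.65), 0.63 (SE 0.66) and −1.09 (SE 0.67) for XX over XO, XX over XY and XY over XO, and none passed the test. Without XO1, Calr was lower in XY than in XO oocytes, at −1.44, and without XY3 at −1.81. Without XO3 the difference between XX and XO oocytes changed sign, to 0.09, and in the batch-regressed values both differences to XO oocytes did, to 1.13 and 0.21.

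Canx (chr11:50293961-50325673, minus strand) was at 99.0, 91.7 and 91.4 normalized CPM in the XX, 195, 126 and 132 in the XO and 128, 99.3 and 110 in the XY pools. On the spike-in scale the XX pools were nearly equal and lay below all others. In UMIs they had 278, 262 and 300, against 376, 243 and 233 in the XO and 276, 305 and 365 in the XY pools. Canx was 1.6-fold lower in XX than in XO oocytes (log2 fold change −0.68, SE 0.28, adjusted p = 0.251 with edgeR). Relative to the median of all genes the difference was −0.22. The call held in 7 of 16 alternatives and was lost when samples were scaled by the genes (−0.36) and without the filter on low counts (−0.68). It was also lost without XX1 (−0.54), XX2 (−0.66), XX3 (−0.57), XO1 (−0.40), XY2 (−0.59) or XY3 (−0.54), and without XO1 and XY1 together (−0.40). XX and XY oocytes did not overlap on the spike-in scale. Their log2 fold change of −0.26 (SE 0.28) did not pass the test, and neither did that of −0.42 (SE 0.28) for XY over XO.

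Within XO and XY oocytes, the first pool differed from the others, and this ran through most members as it did through genes in general. Of all genes tested, 35.1% were lowest and 30.6% highest in pool 1 of both genotypes, and the deviations of XO1 and XY1 from their genotype means correlated at 0.830 across these genes, which are not independent. Among the members, Ern1, Atf6, Calr, Xbp1 and Ddit3 were lowest in pool 1 of both genotypes, and Hspa5, Hsp90b1 and Canx were highest in it. XO1 had 0.262 times the Ern1, 0.305 times the Atf6 and 0.201 times the Calr level of the mean of XO2 and XO3. For XY1 over XY2 and XY3 these ratios were 0.508, 0.479 and 0.400. Hsp90b1 was instead 2.06 times higher in XO1 and 1.67 times higher in XY1, Hspa5 1.48 and 1.45 times, and Canx 1.51 and 1.22 times. The ratio of Calr to Canx, the soluble to the membrane-bound lectin, was 0.0505 in XO1 and 0.0652 in XY1 and 0.108–0.446 in the other 7 samples. Atf4 lay between the other pools in XO1 and above them in XY1, with ratios of 0.920 and 1.25, and Eif2ak3 went opposite ways, at 1.41 and 0.465.

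The same pools had the highest mitochondrial share, 13.1% and 10.8%. Of the 10 genes listed for the response of cells to dissociation, Hsph1, a cytosolic heat shock protein, made up most of the sum, which was 225–536 normalized CPM over the 9 samples. Hsph1 was also highest in XO1, at 522, and in XY1, at 398, against 213–352 in the others. Of the 10 oocyte markers, Zp1, Zp2, Zp3, Figla and Nobox were lowest of all samples in these pools, with Zp2 at 4920 in XO1 and 10000 in XY1 against 14800–17100, and Oosp1 alone was highest in them, at 9140 and 5570 against 2230–4240. In XO2 and XO3, as for Ern1 and Atf6, Gdf9, Zp1, Zp3, Ooep and Nobox were above every XX and XY pool, with Zp1 at 759 and 2170 against 26.0–129. The sum of the 9 oocyte markers was 24100–25100 in XX, 17700–35000 in XO and 18400–23200 in XY pools. The sum of blood and endothelial markers was 16.1–134 in XO, 19.3–49.7 in XX and 27.0–59.2 in XY pools. It was mostly Pecam1, which XO1 had at 14.5 and the other XO pools at 109 and 132, against 18.6–56.7 in XX and XY pools. The sum of granulosa markers was 55.9–67.2 in XO, 48.0–66.7 in XX and 56.0–92.1 in XY pools. The part of mitochondrial share, heat shock genes or any of these markers in the levels of Ern1, Atf6, Calr and Hsp90b1 was not tested.

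**Figure D4:**
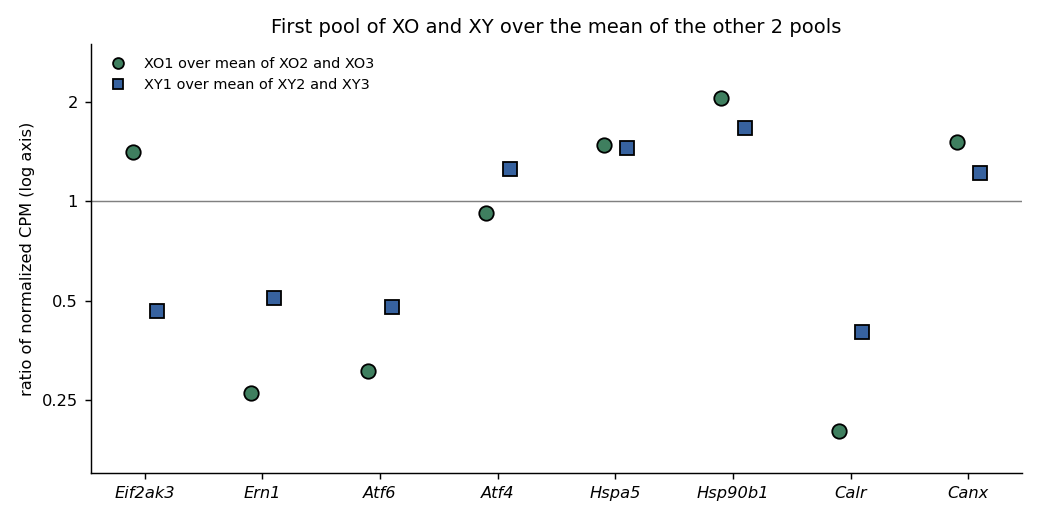
Ratio of the level in the first pool to the mean of the other 2 pools (normalized CPM, log axis) for XO (circles) and XY (squares) oocytes, for the 8 members tested. Ern1, Atf6 and Calr lie below 1 in both genotypes, at 0.201–0.508, Hspa5, Hsp90b1 and Canx lie above 1, at 1.22–2.06, and Atf4 lies at 0.920 and 1.25.

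The wider pathway was described by 5 lists with 84 genes, of which 81 were in the table and 55 could be tested. XX oocytes had lower levels of 11 of the 55 genes (20.0%) than XO oocytes and a higher level of none, beside 16.7% of all genes lower. The direction of these calls depended on the scaling, with 4 genes higher and 5 lower when samples were scaled by the genes and 20 higher and 2 lower in the batch-regressed values. XY oocytes had lower levels of 7 (12.7%) than XO oocytes and a higher level of none, beside 8.24% of all genes lower. Scaled by the genes, 1 was higher and 5 were lower, and in the batch-regressed values 17 were higher and 3 lower. With the replicate block, 11 were lower in XY than in XO oocytes, beside 14.1% of all genes. Between XX and XY oocytes 1 gene (1.82%) was called, the oxidase gene Ero1l, which was lower in XX oocytes (log2 fold change −1.11) and is named although it was chosen after its values were seen. When samples were scaled by the genes, Ero1l was not called (−0.96), and the 1 called gene was Pdia4, a disulfide isomerase that was higher in XX oocytes (0.66). In the batch-regressed values 6 genes were higher and 5 lower in XX oocytes. The median log2 fold changes of the 55 genes, −0.49, −0.07 and −0.41, were near those of all genes (−0.46, −0.19 and −0.30). No gene of the lists was called after adjustment. The count between XX and XO oocytes fell to 1 without XX1, 6 without XX2 and 3 without XO3 and rose to 22 without XO1, where 31.9% of all genes were lower. The count between XY and XO oocytes was 1 without XO3, 2 without XY2, 4 without XX3, XO2 or XY1 and 18 without XO1, where 24.2% of all genes were lower. Between XX and XY oocytes it was 0 without XX2, XX3 or XY1, 2 without XY2 and 4 without XO1. Without XO1 and XY1 together, there were 26 called genes in XX compared with XO oocytes, 5 in XX compared with XY oocytes and 18 in XY compared with XO oocytes. The shares of all genes that were lower were then 35.3, 13.7 and 21.0%.

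In the list of the PERK and ATF4 branch, 8 of 18 genes could be tested, and 2 of the 8 were lower in XX and in XY oocytes, each compared with XO. They were Slc7a11, which encodes the cystine transporter subunit xCT and is a known target of ATF4, and Eif2ak4, which encodes GCN2, the eIF2α kinase that senses amino acid shortage. Other genes of the list are named here after their values were seen. Sesn2 and Cebpg were not called, at 0.07 and −0.15 for XX over XO and 0.43 and −0.17 for XY over XO. Trib3, Chac1, Ppp1r15a, Atf5, Ddit4 and Asns, with 3, 2, 8, 6, 22 and 42 UMIs in all 9 samples, could not be tested. Slc7a11 was at 104, 94.9 and 112 normalized CPM in the XX, 152, 192 and 250 in the XO and 107, 91.5 and 108 in the XY pools. Like those of Atf4, the 3 XO pools were all above the other 6. The log2 fold change was −0.93 (SE 0.28, adjusted p = 0.203 with edgeR) for XX over XO and −0.95 (SE 0.28, adjusted p = 0.485 with edgeR) for XY over XO. These were −0.47 and −0.65 relative to the median of all genes. The calls held in 14 and 15 of 16 alternatives. The first was lost without XX1 (−0.79) and in the batch-regressed values (−0.20), and the second without XY2 (−0.80).

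The promoter of Slc7a11 holds the letters TGATGNAA, the core of the element that ATF4 is known to bind with a C/EBP partner, on both strands. It is shown here since Slc7a11 was the pathway gene of this branch with the lowest p-value in both comparisons with XO oocytes, from RefSeq (GRCm38.p6), 5′ to 3′ on the strand of the gene, with the matches in capitals.
Slc7a11, chr3:50443623-50443709, minus strand: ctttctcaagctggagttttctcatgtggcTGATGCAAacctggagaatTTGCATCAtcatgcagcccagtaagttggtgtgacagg
These letters were found in 1134 of 32851 promoter sequences (3.45%). Counted by gene symbol instead, they were in 8 of 71 pathway genes and in none of the 9 members with a promoter sequence. They are short, and a match describes the sequence and no binding.

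Eif2ak4 was at 9.62, 10.9 and 10.7 normalized CPM in the XX, 18.6, 16.5 and 25.4 in the XO and 13.9, 7.16 and 10.9 in the XY pools, so that the XO pools did not overlap the others. Its log2 fold change was −0.96 (SE 0.33, adjusted p = 0.214 with edgeR) for XX over XO and −0.93 (SE 0.33, adjusted p = 0.485 with edgeR) for XY over XO. The first call was lost when samples were scaled by the genes (−0.58), without XX1 (−0.75) and without XO3 (−0.76), and the second without XO3 (−0.73), XY2 (−0.63) or XY3 (−0.84). The first did not pass the test in the batch-regressed values either (−0.33), and the second did not without the filter on low counts (−0.93). The remaining 6 tested genes of this list, Eif2s1 (eIF2α itself) among them, were not called. Eif2s1, named after its values were seen, was at 99.3–105 in the XX, 136–147 in the XO and 119–128 in the XY pools, ranges without overlap. No comparison passed the test (log2 fold change −0.47, SE 0.23, adjusted p = 0.304 with edgeR for XX over XO). Relative to the median of all genes that difference was −0.02.

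**Figure D5:**
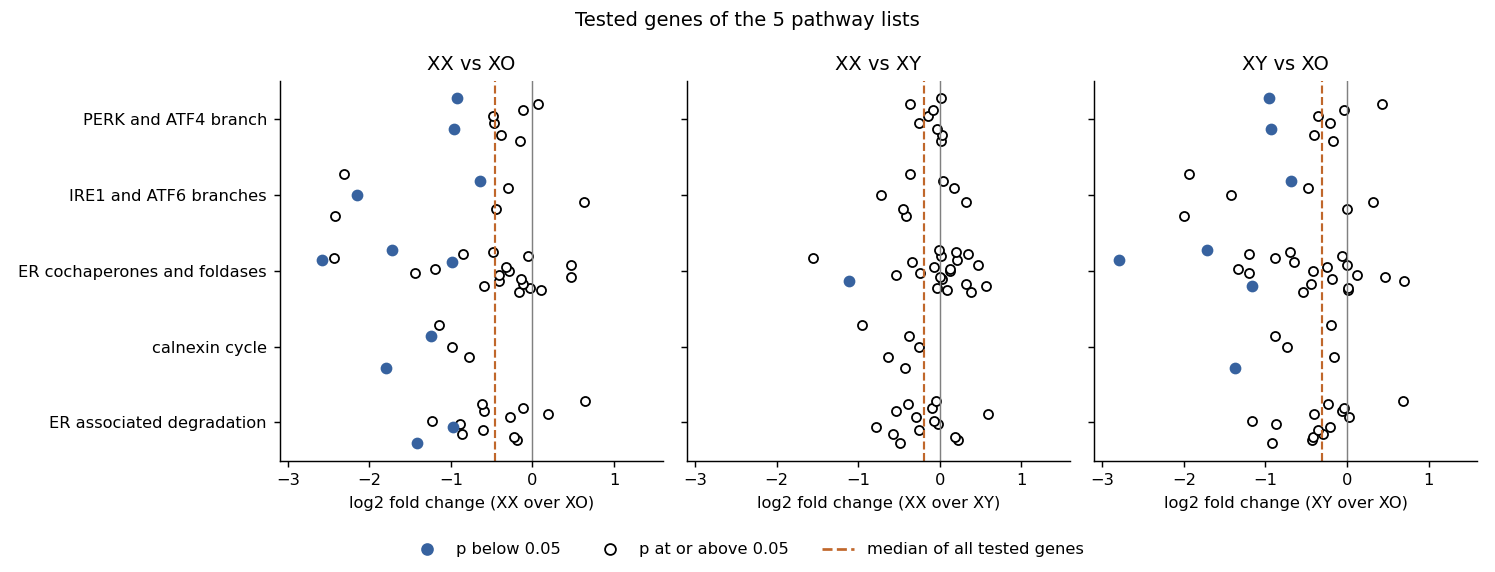
Log2 fold change (horizontal axis) of the 55 tested genes of the 5 pathway lists in each comparison, 1 circle per gene, with filled circles for p-values below 0.05 and a dashed line at the median of all genes tested. All filled circles lie left of 0, with 11 for XX over XO, 1 for XX over XY and 7 for XY over XO.

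Of the other lists, the IRE1 and ATF6 branches had 2 of 7 tested genes lower in XX than in XO and 1 of 7 lower in XY than in XO oocytes, beside 16.7% and 8.24% of all genes. Nfyc, a subunit of the factor NF-Y, was at 23.9, 18.6 and 21.3 normalized CPM in the XX, 25.9, 35.7 and 37.8 in the XO and 21.4, 20.5 and 20.2 in the XY pools. XO pools were above all others. The log2 fold change was −0.68 (SE 0.26, adjusted p = 0.485 with edgeR) for XY over XO, and the call held in 6 of 16 alternatives. It was lost when samples were scaled by the genes (−0.47), in the batch-regressed values (−0.12) and without the filter on low counts (−0.68). The same held without XX1 (−0.61), XX3 (−0.61), XO2 (−0.62), XO3 (−0.57), XY1 (−0.70), XY2 (−0.59) or XY3 (−0.55). The ER cochaperones and foldases had 3 of 21 (14.3%) lower in XX than in XO and 3 of 21 (14.3%) lower in XY than in XO oocytes. In the calnexin cycle these were 2 of 5 and 1 of 5, and in ER associated degradation 2 of 14 (14.3%) and 0 of 14, counts too small to set a list apart from all genes.

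Faf2, whose product draws the ATPase p97 to the ER for degradation, was at 9.26, 7.70 and 7.92 normalized CPM in the XX, 11.9, 17.1 and 20.3 in the XO and 13.9, 8.46 and 20.2 in the XY pools. It was lower in XX than in XO oocytes (log2 fold change −0.98, SE 0.38, adjusted p = 0.241 with edgeR), with no overlap. The call was lost when samples were scaled by the genes (−0.60), in the batch-regressed values (−0.17) and without XX1 (−0.93), XX2 (−0.93), XX3 (−0.90), XO2 (−0.95) or XO3 (−0.80). Some called genes had a wide spread among XO pools. Pdia6, a disulfide isomerase that was chosen after its values were seen, was at 4.27, 3.85 and 8.84 in the XX, 3.11, 31.0 and 68.9 in the XO and 2.32, 5.21 and 6.94 in the XY pools. As for Ern1, Atf6 and Calr, XO1 was far below XO2 and XO3, and the XO pools overlapped the others. The 26 genes of the lists that could not be tested had 2–75 UMIs in all 9 samples together.

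Over the 9 samples, the genes whose levels ran most like that of Hspa5 were Slc9a2, Akr1d1, Gm29106, Zfp967 and AU015836, with Pearson coefficients of 0.973, 0.962, 0.951, 0.951 and 0.944 on log2(normalized CPM + 1). They were the 5 highest of 7269 genes whose mean reached 10 normalized CPM. The samples share the spike-in factor, the depth and the difference of pools 1, and when samples were scaled by the genes, 1 of the 5 was still among the 5 highest. None of these genes is a member or on a pathway list.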

How the data were processed

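RNA of 9 pools of 30 oocytes (3 XX, 3 XO, 3 XY) was sequenced by Smart-seq3. HISAT2 was used by the authors to place the stranded read pairs on GRCm38 with Gencode transcripts. From reads of 5′ exons they made and deposited UMI counts for each gene and for 79 ERCC spike-ins. A second deposited matrix holds a signal, called normalized CPM, that the authors scaled to the spike-ins. It was rebuilt here from the counts, the gene total and the TMM factor of the spike-ins, with a relative difference of at most 5.1e-15. Another deposited matrix holds log2 values after removal of batch effects by the authors, called batch-regressed values. The version of HISAT2 is not given in the sources used here. The XO column without a number was taken as XO1. No sample was left out, and staining and qRT-PCR were not analysed here.

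Counts were tested with edgeR 4.0.16 in R 4.3.3 (quasi-likelihood test, spike-in factors, common dispersion 0.201), in 1 fit of the 9 samples with genes kept by filterByExpr for the 3 genotypes. All tests were two-sided with a threshold of 0.05, and adjusted p-values are those of Benjamini and Hochberg over the 10993 genes tested. The scripts were tested on simulated counts. Members and lists were chosen with earlier results of these data known, so that no p-value is adjusted over a list alone. Besides the members, the genes named are, of the pathway lists and for each comparison, the called genes with the largest log2 fold changes, up to 3 in each direction, that had no overlap and a mean of 10 normalized CPM or more, and the 5 genes most correlated with Hspa5. Others are said to be chosen after their values were seen. Alternatives were scaling by the genes (TMM), DESeq2 1.42.0, no filter on low counts, sva 3.50.0 with 1 surrogate variable, the replicate number as a block, limma 3.58.1 on the batch-regressed values, and leaving out each sample. Leaving out XO1 and XY1 together was added after seeing the data.

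Whether replicate numbers pair the samples was checked by correlating, over the tested genes, the deviations of samples from their genotype mean. XO and XY samples of the same number gave 0.830, 0.278 and 0.773. Those of unlike number gave −0.824 to 0.721, and XO2 was more like XY3 (0.721) than XY2. The numbers were thus not shown to pair them. The reported fit used no pairing, and the block by number is an alternative alone. For XX and XO samples of the same number the correlation was 0.468, −0.447 and 0.679. For XX and XY samples it was 0.435, −0.060 and 0.726, against −0.682 to 0.497 for those of unlike number. What samples of the same number share is not stated, and these values cannot decide whether they are paired. Promoters (250 bases before the start) are from RefSeq (GRCm38.p6), and 9 of 10 members and 71 pathway genes were matched by symbol. Gene coordinates are those of the deposited matrix of batch-regressed values, and strands and overlapping genes are from a Gencode release. That release has other coordinates for Atf4 and Ddit3.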

Additional observations from a re-analysis of the deposited data

How the results depend on the processing

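Of the members, Atf4 kept its calls against XO oocytes in all 16 alternatives. Counts of called genes are given first for XX and XO, then for XX and XY, last for XY and XO oocytes. Members called (2, 0 and 2) were 1 in the first comparison with gene TMM scaling, 4 in the last without the filter on low counts, 4, 2 and 6 with sva, and 5 (3 of them higher in XX) and 3 (all higher in XX) in the first 2 with the batch-regressed values. Pathway genes called (11, 1 and 7) were 22, 3 and 17 without the filter, 22, 9 and 12 with sva, 22, 11 and 20 with the batch-regressed values, of which 20, 6 and 17 were higher and so of the opposite direction, and 17 in the first comparison with DESeq2. All genes called (1986, 638 and 1092) were 3953, 1214 and 2735 without the filter, 4164, 2525 and 3109 with sva, and 4848, 2542 and 4835 with the batch-regressed values. With the replicate block, pathway genes called were 2 and 11 and all genes called 1007 and 1827 for XX and XY and for XY and XO oocytes, the members called were 3, 0 and 3, and the block changed the call of no other member than Eif2ak3 (XX against XO, −1.03) and Ern1 (XY against XO). When single samples or XO1 and XY1 were left out, members called ranged over 1–3, 0–1 and 1–4, pathway genes over 1–26, 0–5 and 1–18, and all genes over 828–4548, 384–1896 and 373–3470. All genes between XX and XO were 828 without XX1, 1008 without XX2, 4073 without XO1 and 1059 without XO3. Between XX and XY they were 384 without XX2 and 1280 without XO1, and between XY and XO 3470 without XO1, 425 without XO3, 625 without XY1 and 373 without XY2.

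Log2 fold changes that changed sign were those below, and the cause was not tested. With gene TMM scaling they were Hsp90b1 in XX over XO (0.23) and Ern1 (0.14) and Atf6 (0.04) in XX over XY. With the replicate block they were Hsp90b1 in XX over XO (0) and Ern1 in XX over XY (0.06), and with sva Calr in XX over XO (0.22). In the batch-regressed values they were Ern1 (0.36), Atf6 (0.50), Hsp90b1 (0.19) and Calr (1.13) in XX over XO, Ern1 (0.14) and Atf6 (0.05) in XX over XY, and Ern1 (0.23), Atf6 (0.45) and Calr (0.21) in XY over XO. With samples left out, the value of Atf6 in XX over XY ranged from −0.48 to 0.20, Calr in XX over XO from −0.86 to 0.09, Ern1 in XX over XY from −0.37 to 0.36, Hsp90b1 in XX over XO from −0.25 to 0.43 and Hsp90b1 in XY over XO from −0.55 to 0.24. Depth limits Xbp1 and Ddit3, which no alternative but the one without the filter could test, and Eif2ak3, with 89 UMIs in all.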
